A study of Danio rerio with 6 samples.

Results

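The *foxn* genes encode transcription factors of the forkhead type, which bind DNA through a winged-helix domain. *foxn1*, the gene mutated in the nude mouse, directs the differentiation of thymic epithelial cells, the cells that attract T cell progenitors and support their development. *foxn4*, its closest and evolutionarily older paralogue, is known in zebrafish from the retina and the heart and is also transcribed in the fish thymus. *foxn2* and *foxn3* form a separate branch. Human FOXN3 is a transcriptional repressor first described as a suppressor of DNA damage checkpoint defects, and human FOXN2 was described as a factor binding the enhancer of the human T cell leukaemia virus. The members were taken by symbol, ignoring case, from the 32520 Ensembl gene identifiers counted. *foxn1*, *foxn3* and *foxn4* each matched 1 identifier. *foxn2a* and *foxn2b* were both listed under the human symbol FOXN2, which belongs to ENSDARG00000045105 and ENSDARG00000055574, and the name table does not say which is which, so these genes are given by identifier. This made 5 genes, all of which passed the filter on low counts.

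Total thymus tissue came from adult zebrafish at 3 months of age that were either foxn1+/+ (wild types) or foxn1-/- (mutants), and no treatment is named for either genotype. Bulk RNA-seq was done on 3 libraries per genotype. RNA from 3 fish was combined for a library, so that a pool, not a fish, is the replicate. The mutant line carries an internal deletion of *foxn1*, and the methods name an *ikzf1*:EGFP background for the fish of the same genotypes used for RT-PCR. The question asked of these data is whether any paralogue changes in the thymus of fish that lack functional *foxn1*.

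The libraries held between 31989159 and 42198532 counts on genes. Levels are given as CPM, the counts of a gene scaled to a common library total after TMM normalization. A gene with 3 counts has a level of 0.0623 to 0.0874 CPM, depending on the library, and this limit covers counting error only. Genotypes were compared by edgeR's quasi-likelihood test over 23805 genes at an adjusted p of 0.05. Most of the transcriptome differed between genotypes. Of the genes tested, 72.1% were called, 36.2% as higher and 35.9% as lower in mutants, and every count of *foxn* genes has to be read against these shares. When scaled by library size alone, the calls divided into 6732 higher and 10800 lower genes in place of 8609 and 8556, and the median over all genes tested moved from 0.02 to -0.39 on the log2 scale. Thymocyte markers such as *rag1* and *lck* were present in every library, but 13 of 13 were lower in mutants, with a summed level of 8834 to 11189 CPM in wild types and 226 to 645 CPM in mutants. Of the 10 epithelial markers, 7 were higher and 1 was lower, at 3937 to 10039 CPM in wild types and 8109 to 22530 CPM in mutants. The keratin genes *krt5* and *krt4* made up most of this sum. *krt5* overlapped between genotypes (1760 to 5829 CPM in wild types, 3877 to 16200 CPM in mutants), and *epcam* and *elf3* were not called. Muscle markers rose in 10 of 10 cases, from 6130 to 14765 CPM in wild types to 89002 to 128079 CPM in mutants, cartilage and bone markers in 9 of 10 and erythroid markers in 6 of 7. In such bulk samples, fewer cells of a type and less RNA per cell cannot be told apart.

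Of the 5 *foxn* genes, 4 were called between genotypes (edgeR), a share of 80% beside the 72.1% of all genes tested. This count includes *foxn1*, the gene deleted by design, whose fall checks the labels and is not a result about a paralogue. The deleted gene *foxn1* and both *foxn2* genes were lower in mutants, *foxn3* was higher, and *foxn4* did not pass the test. The same 4 genes, *foxn1* among them, had levels that did not overlap between genotypes. So did 77.2% of all genes tested (37.8% with all mutants higher and 39.3% with all mutants lower). The only *foxn* gene that rose was therefore *foxn3*, from the other branch of the family.

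**Figure D1:**
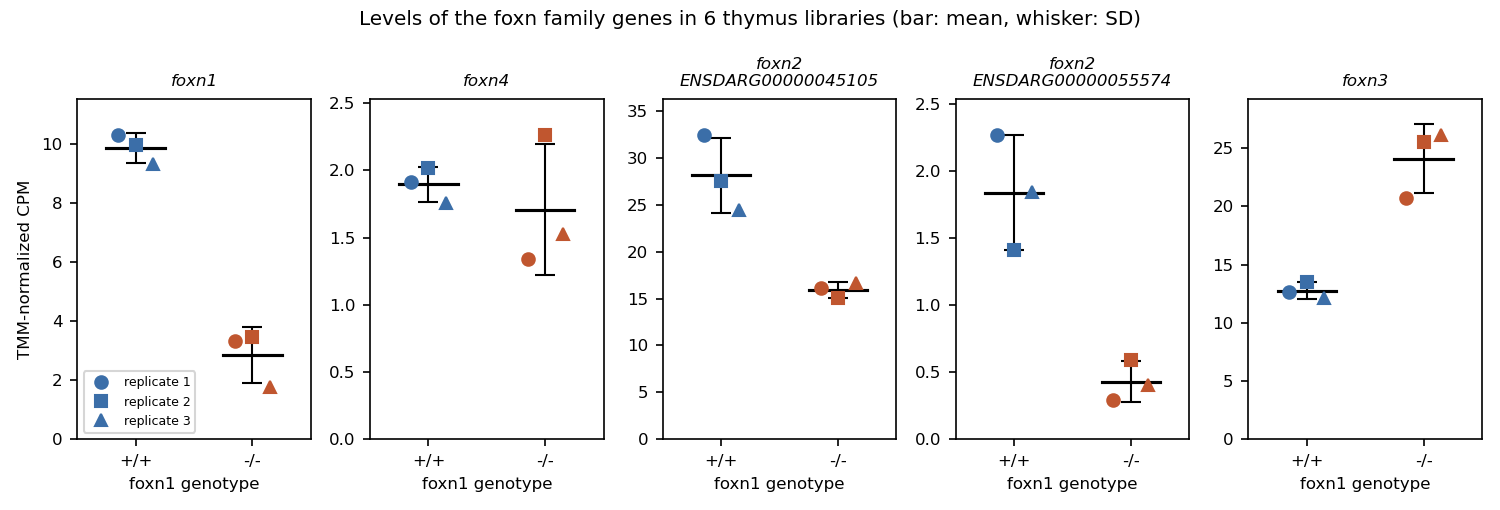
Normalized CPM (y axis, starting at 0) of the 5 *foxn* genes in the 3 libraries of each *foxn1* genotype (x axis), with a marker shape for each replicate number, bars for means and whiskers for SD. The mutant libraries lie below all wild types for *foxn1* and both *foxn2* genes, above them for *foxn3*, and on both sides of them for *foxn4*.

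*foxn1* (ENSDARG00000011879) was at 10.3, 9.96 and 9.31 CPM in wild-type replicates 1 to 3 and at 3.32, 3.47 and 1.76 CPM in mutant replicates 1 to 3. The wild types lay close together, with an SD of 5.03% of the mean, while mutant replicate 3 was the lowest library of all. It held 66 *foxn1* counts, and mutant replicates 1 and 2 held 114 and 129. The mean level in mutants was 29.0% of that in wild types (9.85 ± 0.495 and 2.85 ± 0.945 CPM, SD, n = 3 each). The log2 fold change was -1.79 (standard error 0.263, 95% interval -2.41 to -1.17, adjusted p = 0.000792, edgeR). Every library labelled mutant thus held less *foxn1* than every wild type. Reads were counted over the whole gene and the deleted part is not marked in the counts, so that transcripts with the deletion can still contribute the 66 to 129 counts of the mutants. Whether they do was not tested. Without mutant replicate 3, the fall was smaller, at -1.46.

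*foxn4* (ENSDARG00000010591) was at 1.91, 2.02 and 1.76 CPM in wild types and at 1.34, 2.26 and 1.52 CPM in mutants. The highest and the lowest of the 6 libraries were both mutants, so the genotypes overlapped. The log2 fold change was -0.15, with a 95% interval from -0.77 to 0.47 (adjusted p = 0.625, edgeR). On a linear scale, this interval runs from 0.587 to 1.38 times the wild-type level, so that a fall to below 0.587 times or a rise above 1.38 times lies outside it, and smaller changes in either direction do not. The spread of *foxn4* was uneven. Between wild types, the SD was 6.83% of the mean, below the 11.3% that counting error alone gives at these counts, and between mutants it was 28.5%, above the 12.7% of counting error. Leaving out mutant replicate 1 or mutant replicate 3 brought the log2 fold change to 0.05 and 0.00, and leaving out mutant replicate 2 brought it to -0.35, all without a call (adjusted p between 0.221 and 1, edgeR).

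*foxn4* is also transcribed in neural tissue, and the summed level of 16 identifiers of brain markers was 808 CPM in mutant replicate 2, the library with the most *foxn4*, against 314 and 569 CPM in mutant replicates 1 and 3 and 51.5 to 190 CPM in wild types. Of these brain identifiers, 13 of 16 were called higher in mutants and none lower, and none was at 0 in all libraries. Markers of photoreceptors and retina reached 505 CPM in mutant replicate 3, against 5.68 and 23.0 CPM in the other mutants and 11.1 to 19.9 CPM in wild types, while *foxn4* was at 1.52 CPM in that library, below all wild types. The part of neural or eye tissue in the *foxn4* values was not tested. In the same libraries 13 of 13 thymocyte markers fell, and of 10 epithelial markers 7 rose and 1 fell. The part of these shifts in the *foxn4* values was not tested either, so its level per cell is not known.

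**Figure D2:**
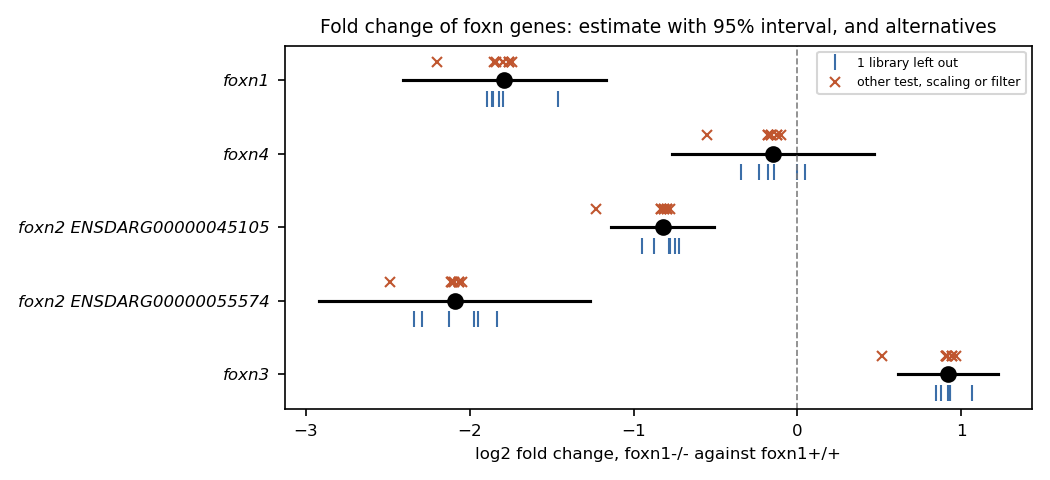
Log2 fold change of each *foxn* gene in mutants against wild types (x axis), with the estimate (point) and its 95% interval (line), the values with 1 library left out (blue ticks) and the values under other tests, scalings or filters (orange crosses). The values of *foxn4* lie between -0.55 and 0.05, and those of the other 4 genes keep their side of 0.

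The *foxn2* gene ENSDARG00000045105 had 1561, 1038 and 917 counts in the wild-type libraries, and 552, 559 and 624 were found in the mutants. In CPM, every mutant lay below every wild type, and here the mutants were the tighter group (28.2 ± 4.01 and 15.9 ± 0.830 CPM, SD, n = 3 each). The log2 fold change was -0.82 (standard error 0.133, 95% interval -1.13 to -0.51, adjusted p = 0.00125, edgeR), which left 56.6% of the wild-type mean. Of the *foxn2* gene ENSDARG00000055574, wild types held 109, 53 and 69 counts and mutants 10, 22 and 15, without overlap also in CPM. It fell to 23.3% of the wild-type mean, with a log2 fold change of -2.09 (standard error 0.351, 95% interval -2.92 to -1.26, adjusted p = 0.00147, edgeR). At the lowest of these counts, counting error alone comes to 31.6%. The intervals of the 2 *foxn2* genes do not meet, but their difference was not tested, and how reads shared between similar genes were counted is not given in the sources used here.

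*foxn3* (ENSDARG00000012833) was at 12.7, 13.5 and 12.1 CPM in wild types and at 20.7, 25.5 and 26.1 CPM in mutants. The lowest mutant lay above the highest wild type, and the mean level in mutants was 1.89 times that in wild types (12.8 ± 0.707 and 24.1 ± 2.96 CPM, SD, n = 3 each). The log2 fold change was 0.92 (standard error 0.130, 95% interval 0.61 to 1.22, adjusted p = 0.000649, edgeR). The size of this rise depended on the scaling. With library size alone it was 0.52 (adjusted p = 0.0151, edgeR), together with the shift of all genes. Both *foxn2* genes fell and *foxn3* rose in libraries in which thymocyte markers fell and muscle, cartilage and erythroid markers rose. The part of cell composition in these changes was not tested.

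These opposite changes altered the make-up of the family. *foxn1* gave 17.3%, 18.3% and 18.8% of all *foxn* counts in wild types and 7.96%, 7.41% and 3.80% in mutants. *foxn3* went from 21.3%, 24.8% and 24.4% to 49.6%, 54.4% and 56.2%. The *foxn2* gene ENSDARG00000045105 went from 54.4%, 50.6% and 49.5% to 38.5%, 32.1% and 35.9%. *foxn4* kept a small share, 3.21% to 3.71% over the wild types and 3.21% to 4.82% over the mutants. These are shares of counts, not of transcripts, since no transcript lengths were at hand. The summed level of the family was 59.6, 54.4 and 49.5 CPM in wild types and 41.7, 46.9 and 46.5 CPM in mutants.

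**Figure D3:**
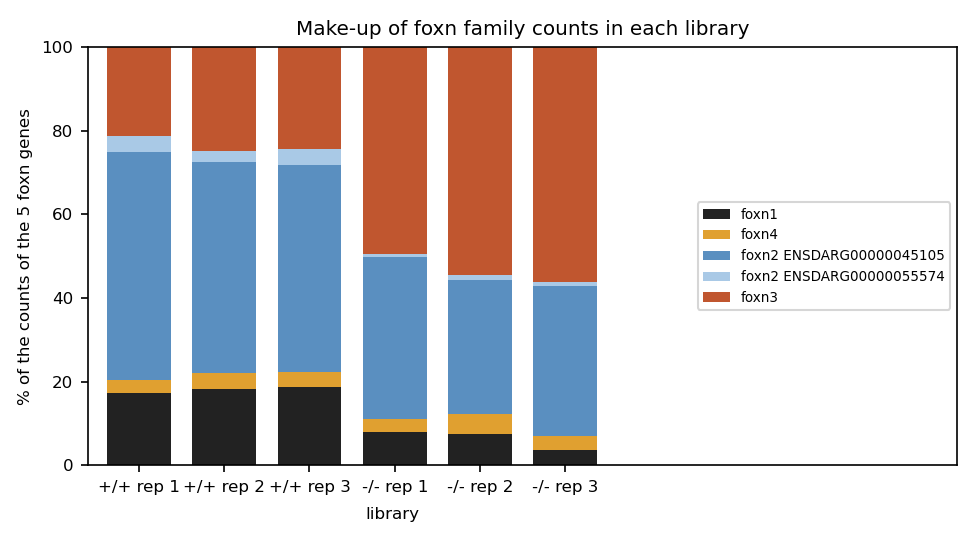
Share (%) of each *foxn* gene in the summed counts of the 5 *foxn* genes (y axis) for the 6 libraries (x axis). *foxn3* takes 21.3% to 24.8% of the counts in wild types and 49.6% to 56.2% in mutants, and *foxn1* falls from at least 17.3% to at most 7.96%.

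Relative to *foxn1*, its paralogue *foxn4* had 0.186, 0.203 and 0.189 counts per *foxn1* count in wild types. In mutants there were 0.404, 0.651 and 0.864, all above the wild types, although *foxn4* itself was not called. For *foxn3*, the ratio went from 1.23, 1.35 and 1.30 to 6.23, 7.34 and 14.8. The ratio of the *foxn2* gene ENSDARG00000055574 to *foxn1* overlapped between genotypes, with a mean of 0.186 in wild types and 0.162 in mutants. Because *foxn1* itself fell, a paralogue at a steady level has a higher ratio in mutants. A higher ratio is therefore not by itself a gain of the paralogue. No test was made of these ratios.

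The low *foxn1* value of mutant replicate 3 can be set beside *pax9*, a transcription factor of the pharyngeal pouch endoderm from which thymic epithelium derives. *pax9* was also lowest in that library, at 19.0 CPM against 37.6 and 38.0 CPM in the other mutants, and was not called between genotypes (adjusted p = 0.422, edgeR). Per *pax9* count, *foxn1* was at 0.396, 0.350 and 0.365 in wild types and at 0.0883, 0.0914 and 0.0928 in mutants. On this scale the 3 mutants lay close together for *foxn1*. For other members mutant replicate 3 stood apart instead. *foxn3* per *pax9* count was at 0.550, 0.671 and 1.37 in mutants, and the *foxn2* gene ENSDARG00000045105 was at 0.428, 0.396 and 0.878. *foxn4* per *pax9* count was at 0.0735, 0.0709 and 0.0690 in wild types and at 0.0356, 0.0595 and 0.0802 in mutants, and still overlapped between genotypes. This scale was chosen after the values were seen, and no test was made on it. Of the 11 pouch regulators compared below, *pax9* was the only gene not called, and the other 10 were higher in mutants. Ratios to those genes were not taken. The summed epithelial markers were not lowest in mutant replicate 3, at 22530 CPM against 20558 and 8109 CPM in mutant replicates 1 and 2.

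For each *foxn* gene, the 3 genes with the most similar pattern over the 6 libraries were looked up among 17945 named genes of at least 1 CPM, by Pearson's r of log2 CPM. For *foxn1* these were *slc6a14*, *ciita* and *irf4*, each with r = 0.998. Since the libraries fall into the genotypes, 4706 genes had an r above 0.9 with *foxn1*, 4468 with *foxn3*, and 5112 and 5042 with the *foxn2* genes. *foxn4* was not called and lacks this split by genotype, and 65 genes had an r above 0.9 with it. The first of these were si:dkeyp-8f4.7 (r = 0.992), *elfn2* (r = 0.992) and *gig2l* (r = 0.990), none of which was called between genotypes. These are the highest of 17945 values over 6 libraries, at 46 to 92 *foxn4* counts a library. They are a description and do not show that the genes are tied to *foxn4*. For *foxn3* the 3 genes were *mthfsd*, *chrnb2* and *chn1*, for ENSDARG00000045105 *invs*, *erp44* and *fntb*, and for ENSDARG00000055574 *hivep1*, *cspp1* and *ptbp2*, all with r of at least 0.9975.

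Among the other forkhead genes, 57 identifiers had such a symbol and 52 were tested. In mutants 30 of them were higher, 12 lower and 10 not called (edgeR), or 80.8% called beside 72.1% of all genes, and their median log2 fold change was 0.96 beside 0.02 for all genes. With library size alone, 21 were higher and 15 lower. With at least 10 counts in every library, 41 were tested, 25 of them higher and 10 lower. The fall of *foxn1* was far from the largest in this group. *foxp3b*, named after the regulatory T cell gene *Foxp3*, had a wild-type level of 45.4 ± 0.288 CPM (SD, n = 3). The mutants held 2, 2 and 0 counts of it, at least 519-fold lower against 3 counts per library. *foxp3a* had a log2 fold change of -5.41, and *foxj1a*, the regulator of motile cilia listed as FOXJ1, one of -4.39. The largest rises were those of a *foxb1* gene (ENSDARG00000089042, 4.11), a *foxl2* gene (ENSDARG00000068417, 4.09) and *foxf2a* (3.67) on the log2 scale. *foxn3* lay close to the median of the other forkhead genes, and both *foxn2* genes and *foxn1* were on the side with fewer of them.

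**Figure D4:**
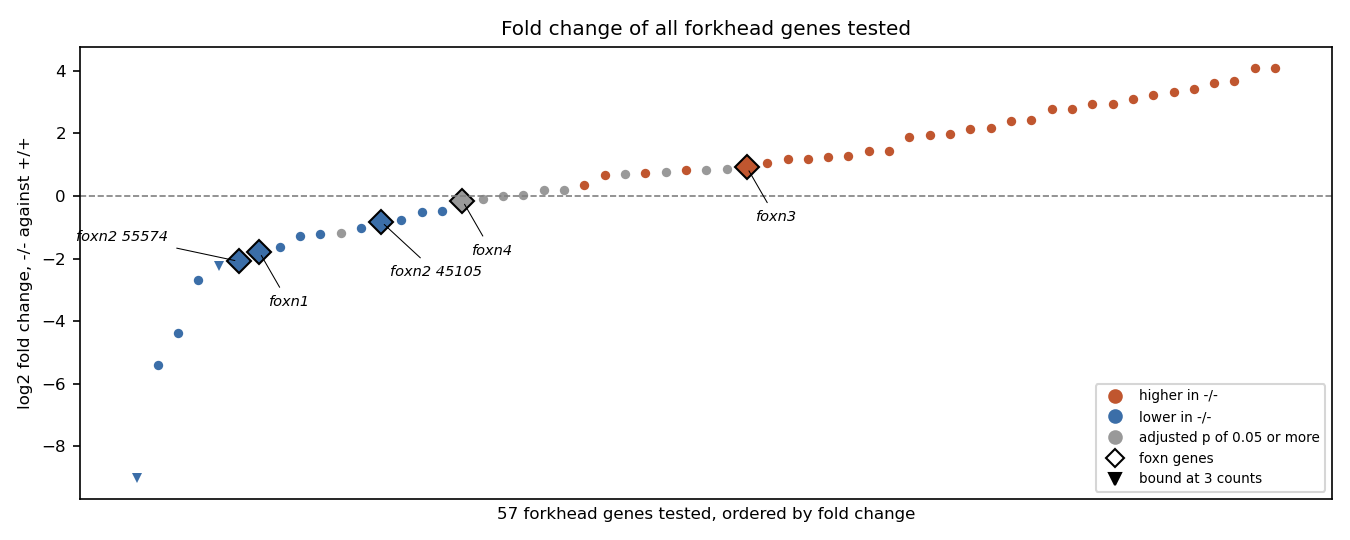
Log2 fold change in mutants against wild types (y axis) of the 52 other forkhead genes tested and the 5 *foxn* genes, in order of their value (x axis). Diamonds mark the *foxn* genes and triangles genes at no more than 3 counts in every mutant, drawn at their bound. *foxn3* at 0.92 lies near the middle and *foxn1* at -1.79 lies towards the lower end.

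Genes linked to the *foxn* factors were then compared. In mice, FOXN1 drives genes with which thymic epithelium feeds and selects thymocytes. A list of 15 identifiers drawn from mouse work on FOXN1, called *foxn1* targets below, was compared. Whether *foxn1* drives each of them in zebrafish was not tested. Of these 15 identifiers, 9 were higher and 6 lower in mutants (edgeR), beside 36.2% higher and 35.9% lower among all genes tested. The median log2 fold change of the list was 0.86 (also with genes at their bound), and its members lay on both sides of 0. The thymoproteasome genes were nearly lost. The gene listed as PSMB11 (ENSDARG00000108530), for the entry *psmb11a*, went from 2509, 1597 and 1636 counts to 0 in all mutants, at least 527-fold lower, and *psmb11b* from 4019, 2638 and 2407 counts to 1, 0 and 0, at least 830-fold lower, both against 3 counts per library. *foxn1* itself kept 29.0% of its level in the same libraries. Both *psmb11* genes passed the filter on low counts through the wild types alone, so they could only be called lower. With at least 10 counts in every library, 13 genes of the list were tested, 9 of them higher and 4 lower. The chemokine gene *ccl25a* fell by 2.53 on the log2 scale, while its duplicate *ccl25b* rose from 301 ± 71.6 to 914 ± 163 CPM (SD, n = 3 each). Of the atypical chemokine receptor genes listed as ACKR4, ENSDARG00000078729 fell by 2.04 and ENSDARG00000040133 rose by 2.37. *kitlga*, encoding Kit ligand, and *fgfr2* rose by 2.64 and 2.69. The Notch ligand gene *dll4* rose by 0.51 (adjusted p = 0.0129, edgeR), a call that was lost with library size alone (0.10), with voom and treat, and without wild-type replicate 2 (0.38). *kitlgb* was called higher too, and lost the call in 6 of 14 alternatives. Muscle and cartilage markers rose and thymocyte markers fell in the same libraries. The part of cell composition in the changes of this list was not tested.

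**Figure D5:**
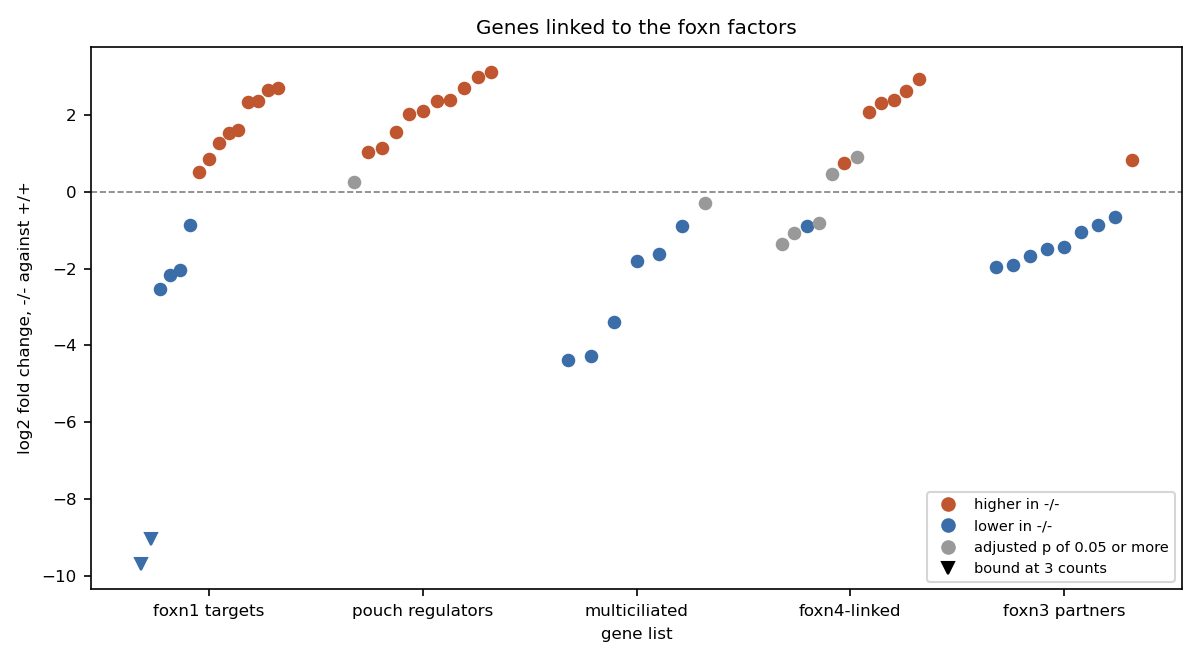
Log2 fold change in mutants against wild types (y axis) of the genes of 5 lists tied to the *foxn* factors (x axis), each point 1 gene and each triangle a gene at no more than 3 counts in every mutant, drawn at its bound. The *foxn1* targets lie on both sides of 0, the pouch regulators above it, and 8 of 9 *foxn3* partners below it.

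Regulators of the pharyngeal pouch, in which *foxn1* is first switched on, rose together while *foxn1* fell. Of 11 tested, 10 were higher and none lower (edgeR), beside 36.2% higher and 72.1% called among all genes tested, with a median log2 fold change of 2.105. Muscle (10 of 10), cartilage and bone (9 of 10) and brain markers (13 of 16) rose in the same libraries, and their part in the rise of this list was not tested. *hoxa3a* went from 5.46 ± 0.208 to 35.5 ± 10.2 CPM and *gcm2* from 4.38 ± 1.26 to 38.1 ± 17.6 CPM (SD, n = 3 each). As with *foxn1* and *pax9*, mutant replicate 3 was the lowest mutant for *hoxa3a* (890 counts against 1360 and 1597) and *gcm2* (673 counts against 1724 and 1714). One of the *pax1* genes (ENSDARG00000008203, log2 fold change 1.13) lost its call with library size alone and without wild-type replicate 1 or 3.

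For *foxn4*, 12 genes that go with it in the retina, spinal cord or heart were compared. Of these 6 were higher, 1 lower and 5 not called (edgeR), or 58.3% called beside 72.1% of all genes. With library size alone, 4 were higher and 3 lower. Both *tbx2* genes, of which *tbx2b* acts downstream of *foxn4* in the zebrafish heart, rose, by 2.38 and 2.07 on the log2 scale. Brain, cartilage and muscle markers rose in the same libraries, and their part in the changes of this list was not tested. No change of *foxn4* was detected in these libraries, and its interval leaves room for smaller changes in either direction. *neurod1* followed the library with the most brain markers, with 82.1 CPM in mutant replicate 2 and 4.90 and 17.1 CPM in the other mutants, and was not called without that library (log2 fold change 1.33 in place of 2.94, adjusted p = 0.14, edgeR) or without any single wild type (adjusted p of 0.0566 to 0.104). In *Xenopus*, Foxn4 acts in multiciliated cells. Of 7 regulators of these cells, 6 were lower in mutants and none higher (edgeR), beside 35.9% lower among all genes tested, with a median log2 fold change of -1.81. *gmnc*, which starts the multiciliated programme, went from 77, 57 and 49 counts to 4, 1 and 3. *gmnc* and *mcidas* passed the filter on low counts through the wild types alone, so they could only be called lower. With at least 10 counts in every library, 4 of 5 regulators tested were lower and none higher. In the same libraries, no change of the *foxn4* level was detected. A link of *foxn4* to the fall of this group, and the part of cell composition in it, were not tested.

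For *foxn3*, 9 genes of proteins reported as partners or targets of FOXN3 were compared. In mutants 8 were lower and 1 higher (edgeR), beside 35.9% and 36.2% of all genes tested, with a median log2 fold change of -1.44. The deacetylase gene *hdac1* went from 629 ± 16.6 to 223 ± 17.4 CPM and *men1*, encoding menin, from 41.2 ± 2.62 to 11.1 ± 0.906 CPM (SD, n = 3 each). Both *myc* genes fell, by 1.44 (ENSDARG00000007241) and 1.68 (ENSDARG00000045695) on the log2 scale. *pim1* was the 1 gene of the list that rose, by 0.82, and lost its call with library size alone (adjusted p = 0.0506, edgeR). These genes are also active in dividing thymocytes, whose markers fell in the same libraries, and the part of thymocyte loss in their fall was not tested.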

How the data were processed

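Samples were grouped by the genotype and replicate number in their labels, and none of the 6 was left out. Per the submitters' processing notes, Trim Galore 0.4.3.1, HISAT2 2.1.0 and featureCounts 1.6.1.0 were used with build GRCz11. The authors deposited unnormalized read counts for each Ensembl gene. The annotation release, the strand setting and the treatment of multiply aligned reads are not given in the sources used here. Of 32520 identifiers, 29201 had a symbol. A gene entered the test if 3 or more libraries held over 5 counts (23805 genes). The test was the two-sided robust quasi-likelihood test of edgeR 4.0.16 (R 4.3.3) with TMM scaling, adjusted over all genes by the Benjamini-Hochberg method at 0.05. Standard errors were taken from the log2 fold change and the F statistic. The script was tested on simulated data. Nothing in the labels says whether pools came from separate clutches, so p-values measure the spread between pools.

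Members, gene lists and tests were chosen with earlier results of these data known. Named genes were the members, the genes of the linked lists, the other forkhead genes that rose or fell most, 3 in each direction (called, at least 1 CPM, no overlap), and the 3 genes most like each member. List entries matched by symbol or, failing that, by the symbol without its final letter; *prss16* and *ccno* matched none. Alternatives were DESeq2 1.42.0, voom and treat (limma 3.58.1, fold change 1.2), DESeq2 size factors, library size alone, upper quartile scaling, testing all genes without a filter, a minimum of 10 counts per library, a replicate block, and leaving out each library. The replicates were not copies of each other (chi-square per degree of freedom of 34.1 or more). No transcript lengths or sequences were used here, so shares and ratios between genes are of counts, not of transcripts, and are read only between libraries.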

Additional observations from a re-analysis of the deposited data

How the results depend on the processing

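*foxn1*, both *foxn2* genes and *foxn3* kept their direction and their call in 14 of 14 alternatives each. Their log2 fold changes ranged from -2.20 to -1.46 (*foxn1*), -1.23 to -0.72 (ENSDARG00000045105), -2.49 to -1.83 (ENSDARG00000055574) and 0.52 to 1.07 (*foxn3*), with the lowest value of each reached with library size alone. *foxn4* was called in 0 of 14. Its value ranged from -0.35 to 0.05 (0.0486) with single libraries left out, changing sign without mutant replicate 1 and, at 0.000206, without mutant replicate 3, and was -0.55 with library size alone (adjusted p = 0.108, edgeR). Counts were lowest for *foxn4* (46 to 92 a library) and ENSDARG00000055574 (10 to 109), but the mutant pools of both spread by more than counting error (28.5% against 12.7% and 35.5% against 25.3% of the mean). Numbers of genes called ranged from 14432 to 17532. The counts of calls in the 6 lists stayed within 1.5 times their main value in all 14 alternatives, but the genes tested differed. Both *psmb11* genes, *gmnc* and *mcidas* were not tested with at least 10 counts in every library or without any single wild type. In these settings 13 *foxn1* targets were tested in place of 15, and their median was 1.13 to 1.40. Of the multiciliated regulators, 5 were tested there and 4 called, in place of 7 and 6. With library size alone, the median of the 15 *foxn1* targets was 0.45. Among the other forkhead genes called, 13 lost the call in at least 1 alternative. Replicate numbers did not pair the libraries: deviations of same-numbered libraries correlated at 0.139, -0.0611 and -0.00895. With the number as a replicate block, 16308 genes were called, *foxn1* was at -1.84, *foxn4* at -0.18, the *foxn2* genes at -0.81 and -2.09 and *foxn3* at 0.91. Levels per transcript length, and sequences of proteins and promoters, were planned and not run.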
